A study of Mus musculus with 2 samples.

Results

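The 8 genes described here encode receptors by which natural killer (NK) cells and related lymphocytes sense other cells. Klrd1, Klrc1, Klrk1, Klra7, Klrb1c, Klre1 and Klrg1 are killer cell lectin-like receptors, and Ncr1 encodes the natural cytotoxicity receptor NKp46. They were taken by name from the 32285 genes of the count tables, at a time when earlier results of these data were known, and were followed in natural killer, unconventional T, CD8 T and innate lymphoid cells picked by other marker genes. All 8 were listed in the tables and all 8 had UMIs (unique molecular identifiers, each standing for 1 captured transcript) in both libraries.

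The study profiled single CD45+ cells, that is cells of blood origin, from the lamina propria of the mouse colon in 2 libraries, CD163_FL and CD163_NC, with 1 library per group. The series title names CD163+ macrophage-deficient and wild-type mice, but no label ties a library to either, so no genotype is assigned here. The sources used here give no strain, age or sex, no number of pooled animals and no means of macrophage depletion. Per the labels' protocols, cells from the interphase of a Percoll gradient were stained and sorted, dead cells were left out with 7-AAD, and libraries were made with a 10x 3' kit.

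Many of these receptors weigh inhibitory against activating signals. Klrd1 (CD94) pairs with Klrc1 (NKG2A) into an inhibitory receptor for the non-classical class I molecule Qa-1, and Klra7 (Ly49G) is an inhibitory receptor of the Ly49 family for classical class I molecules. Klrk1 (NKG2D) binds stress-induced ligands and signals through the adaptors Hcst (DAP10) and Tyrobp (DAP12). Ncr1 is an activating receptor that signals through Fcer1g and Cd247, and Klrb1c is the activating receptor NK1.1. Klre1 forms complexes with Klri1 or Klri2, and Klrg1 is an inhibitory receptor for cadherins that is also known as a marker of type 2 innate lymphoid cells (ILC2) in the gut. In the intestine such receptors are found on NK cells, on innate lymphoid cells and on intraepithelial and effector CD8 T cells.

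The 7 lectin-like genes lie on chromosome 6 of the mouse genome (mm10 build) over a span of 7.96 Mb, and Ncr1 lies on chromosome 7. Promoter sequences of the RefSeq set (GRCm38.p6, 250 bases before to 50 after the annotated start) were matched for 6 of the 8 genes, with 9 entries in all. Those of Ncr1, Klre1 and Klra7 are shown because the first 2 genes were lower and Klra7 was higher in CD163_FL than in CD163_NC within NK-like cells, as described later. Each is 1 strand from 5' to 3', and capitals mark matches on either strand to TGTGGT, a core of RUNX factor motifs, or to GTGTGA, a core of T-box motifs. RUNX and T-box factors, such as Runx3, Eomes and Tbx21, are known regulators of NK cells.
Ncr1 (chr7:4337465-4337764, plus strand): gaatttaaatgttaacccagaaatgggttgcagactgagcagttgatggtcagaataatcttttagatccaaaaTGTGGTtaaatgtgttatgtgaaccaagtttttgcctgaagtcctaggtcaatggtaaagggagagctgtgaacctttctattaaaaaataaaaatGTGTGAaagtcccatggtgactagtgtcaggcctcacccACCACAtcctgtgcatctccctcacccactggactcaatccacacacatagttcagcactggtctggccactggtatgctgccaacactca
Klre1 (chr6:129577963-129578262, plus strand): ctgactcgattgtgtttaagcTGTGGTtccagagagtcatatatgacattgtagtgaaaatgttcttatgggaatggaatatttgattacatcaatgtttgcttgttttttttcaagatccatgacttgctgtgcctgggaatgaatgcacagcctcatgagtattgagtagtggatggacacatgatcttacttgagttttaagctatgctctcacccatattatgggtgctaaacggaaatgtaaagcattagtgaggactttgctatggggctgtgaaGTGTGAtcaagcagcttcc
Klra7 (chr6:130233273-130233572, minus strand): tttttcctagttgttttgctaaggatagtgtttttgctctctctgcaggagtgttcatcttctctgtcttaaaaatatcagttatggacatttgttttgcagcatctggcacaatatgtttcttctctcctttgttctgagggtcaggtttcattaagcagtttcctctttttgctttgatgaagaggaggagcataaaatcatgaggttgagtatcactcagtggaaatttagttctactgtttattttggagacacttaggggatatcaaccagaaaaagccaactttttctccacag

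The Ncr1 window held TGTGGT or its reverse complement ACCACA at 2 places and GTGTGA at 1. The Klre1 window shown held each motif at 1 place, with GTGTGA after the annotated start. The other Klre1 entry held GTGTGA and no TGTGGT. Neither Klra7 entry held a match to either motif. Of the 9 matched entries, 6 had TGTGGT, against 16.8% of all 32851 promoter entries, and 4 had GTGTGA, against 14.5%. These were entries of 5 and 2 of the 6 genes. The entries of Ncr1 overlap one another, as do those of Klre1, so some sites were counted in both entries of a gene. GGAAGT, a core of ETS motifs, was found in 1 of the 9 entries, that of Klrb1c, against 23.8% of all entries. TGTGGT was also in the entries of Klrb1c, Klrk1 and Klrc1, which stayed within 1.5-fold in the NK-like cells. Klrd1, which was lower there in CD163_FL, had no entry. Whether these motifs bear on the ratios was not tested. The motifs do not overlap one another in these windows, a match is only a match of letters, and members of a gene family share ancestry.

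Related genes limit how surely a read can be given to 1 of them. Of all 90-base windows in the last 500 bases of the annotated transcripts, 21.9% of those of Klrc1 also occurred in Klrc2, 11.4% of those of Klrb1c in Klrb1a or the gene model Gm44511, and 6.57% of those of Klra7 in the pseudogene Klra13-ps. The other 5 genes shared none. Counts of Klrc1, Klrb1c and Klra7 are therefore less certain. These shares are of windows, not of reads, so they do not measure what part of the counts is affected. Reads shorter or less exact than these windows could be shared more widely.

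The libraries held 15270 barcodes with 131306539 UMIs (CD163_FL) and 10390 barcodes with 94729872 UMIs (CD163_NC), and 13746 and 9742 cells were kept, with medians of 6464 and 6038 UMIs. In all, 49 barcodes occurred in both libraries, of which 11 cells of CD163_FL and 8 of CD163_NC were in the NK/ILC1, unconventional T, CD8 T, ILC2 and ILC3 gates. S100a8, a gene of neutrophils, had a UMI in 1.21% of all kept cells of CD163_FL and in 45.3% of those of CD163_NC, and it was seen at a like share in lymphocytes of CD163_NC (42.3% of CD8 T cells, against 1.10% in CD163_FL). The part that such RNA plays in the ratios was not tested. Subtracting each library's B cell level left all but 1 of the members' ratios in the marker gates within their intervals, the exception being Klre1 in CD4 T cells (3.50, against 1.97 without subtraction). With 1 library per group there is no spread between animals, preparation cannot be told apart from group, and no test was made. Intervals are at 95%, cover counting error only, and every ratio compares these 2 libraries.

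Cells were gated on raw UMIs of genes other than the 8. A gate for natural killer and type 1 innate cells (NK/ILC1: no CD3 UMI and at least 2 of 9 genes such as Eomes, Tbx21, Gzma and Prf1) took 824 cells of CD163_FL (5.99% of kept cells) and 238 of CD163_NC (2.44%). The gate for unconventional T cells (CD3, no Cd4 or Cd8b1, with Cd8a or Trdc, and no type 17 gene) took 505 and 204 cells, that for CD8 T cells (CD3 and Cd8b1) 2273 and 586, and that for ILC2 249 and 85. The gate for type 3 innate cells (ILC3) took 2 cells of CD163_FL and 0 of CD163_NC, so nothing is said of it. The NK/ILC1 gate was mixed: Trac, a T cell receptor gene, had a UMI in 23.8% and 29.4% of its cells. Clusters made without any lectin-like receptor gene or Ncr1 gave another population of 259 CD163_FL and 39 CD163_NC cells, in which Eomes had a UMI in 70.7% and 64.1%, Gzma in 90.3% and 76.9%, and Prf1 in 90.3% and 84.6%, with Trac in 14.7% and 23.1%. No limit on CD3 was set there, and Trdc, another T cell receptor gene, had a UMI in 20.1% and 35.9% of its cells, against 5.70% and 6.30% of those of the gate. It is called the NK-like cluster. It was picked as the cluster with the highest summed level of the 9 NK/ILC1 genes, so its shares of those genes are no separate support for the name. Each of the 9 was found in at least 10% of its cells, as was also so in a cycling cluster led by Pclaf and Birc5. The NK-like cluster held 204 of the 824 gated CD163_FL cells and 27 of the 238 gated CD163_NC cells, so the gate and the cluster are given side by side. A further CD3-free set, 135 and 72 cells of a cluster led by Il23r, Dscam and Zbtb16, had Kit in 86.7% and 73.6%, Il22 in 29.6% and 9.72%, and Tbx21 in 40.7% and 72.2%. It is left unnamed. It and the NK-like cluster were added after the data were seen. The unconventional T gate was mixed as well: Trac had a UMI in 70.5% and 71.1% of its cells and Trdc in 21.6% and 34.3%. Its largest part, 27.3% and 42.2%, lay in a cluster led by Klra6, Klra7 and Xcl1. A cluster led by Cd8b1, Cd8a and Gzmk held 25.9% of it in CD163_FL. One led by Cd8b1, Tbx21 and Cd8a held 26.5% in CD163_NC. Its values are therefore those of a mixed set.

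Nearly every NK-like cell carried at least 1 of the receptors. With each cell thinned to 2000 UMIs to set depth equal, 97.2% of CD163_FL and 100% of CD163_NC cells of the NK-like cluster had a UMI of at least 1 of the 8 genes, against 1.86% and 0.649% of B cells, which should lack them. Unthinned shares were 98.5% and 100% in the NK-like cluster and 5.89% and 3.04% in B cells, and median depth there was 5045 and 5502 UMIs, against 5173.5 and 5818.5 in B cells. At least 3 of the 8 genes were found together in 57.2% (50.8 to 63.4) of the CD163_FL and 82.1% (66.5 to 92.5) of the CD163_NC cells. The share with at least 1 gene was 67.7% and 58.6% in unconventional T cells and 61.8% and 52.4% in CD8 T cells. There, at least 3 genes were found in only 7.41% and 8.59% of unconventional T cells and in 4.32% and 5.71% of CD8 T cells. In ILC2, 27.8% and 35.7% of cells had a UMI of at least 1 gene, and none of the 230 and 84 thinned cells had 3.

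**Figure D1:**
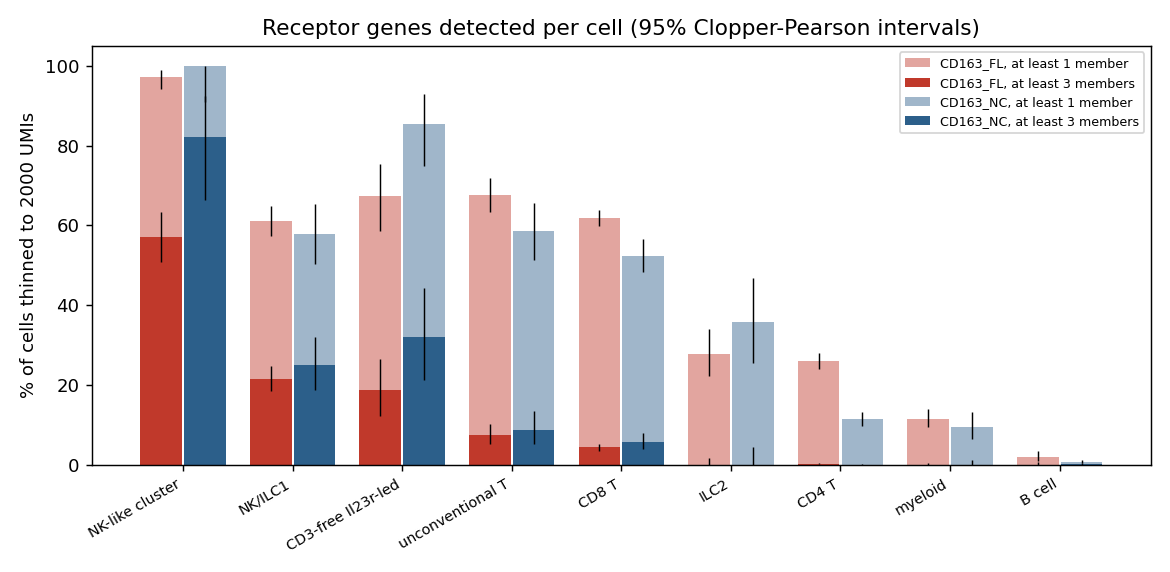
Share of cells, each thinned to 2000 UMIs, with a UMI of at least 1 (pale) or at least 3 (dark) of the 8 receptor genes, by cell group, with CD163_FL left of CD163_NC and 95% Clopper-Pearson intervals. The NK-like cluster stands highest, at 97.2% and 100% for at least 1 gene, and B cells lowest, at 1.86% and 0.649%.

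Klrd1 (chr6:129591782-129598775, plus strand) was highest in NK-like and unconventional T cells. Its level, as CPM (the UMIs of the gene scaled to a fixed total of all UMIs summed over the cells), was 291 (264 to 320) in CD163_FL and 585 (493 to 689) in CD163_NC in the NK-like cluster. In unconventional T cells it was 297 and 440 CPM, and in CD8 T cells 161 and 186 CPM. The intervals of NK-like and unconventional T cells overlapped in CD163_FL, whereas in CD163_NC the NK-like cluster stood above. ILC2 had 5 and 1 UMIs, close to B cells at 3.49 and 1.34 CPM. By cluster the level was highest in both libraries, at 564 and 628 CPM, in a set of 99 and 31 cells led by Itgae, Gzma and Atp8a2, with Trdc among its leading genes.

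Klrc1 (chr6:129666015-129678973, minus strand), the partner of Klrd1, had another order. CD8 T cells had the highest level of these groups in CD163_FL, 350 CPM (342 to 358), but in CD163_NC, at 227 CPM (212 to 242), they stood below the NK-like and the CD3-free Il23r-led cells. The NK-like cluster had 285 CPM in CD163_FL and 421 CPM in CD163_NC, and the CD3-free Il23r-led cells had 300 and 342 CPM, with intervals that overlapped those of the NK-like cluster in each library. Thinned CD8 T cells with a Klrc1 UMI were 41.7% in CD163_FL and 29.9% in CD163_NC (69.9% and 46.9% unthinned), against 0.846% and 0.177% of B cells. Cells with a Klrd1 UMI more often had one of Klrc1 in some groups only. Among thinned CD8 T cells of CD163_NC with a Klrd1 UMI, 43.2% (35.3 to 51.4) had one of Klrc1. Of those without, 25.1% (21.0 to 29.5) did. In CD163_FL these shares were 47.5% (43.3 to 51.6) and 39.8% (37.5 to 42.2). Among unconventional T cells they were 29.8% and 35.0% in CD163_FL, and 16.7% and 17.5% in CD163_NC, with intervals that overlapped.

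Klrk1 (chr6:129610323-129623864, minus strand) was close between the libraries in the NK-like and the CD3-free Il23r-led cells. The NK-like cluster had 521 CPM (484 to 559) in CD163_FL and 511 (425 to 609) in CD163_NC. The CD3-free Il23r-led cells followed at 439 and 434 CPM, with overlapping intervals in both libraries. Type 17 gamma delta T cells, a small gate of 51 and 22 cells, had 304 and 184 CPM. Unconventional T cells had 145 and 92.6 CPM and CD8 T cells 84.0 and 103 CPM. Klrk1 was not confined to lymphocytes: myeloid cells had 60.6 and 30.3 CPM, against 3.74 and 1.74 CPM in B cells. A cluster of 414 CD163_FL and 69 CD163_NC cells led by Zfp366, Htr7, Tbc1d8 and Clec9a had 197 CPM (186 to 208) and 118 CPM (95.5 to 143), and it held 17.1% of all Klrk1 UMIs of CD163_FL. That cluster is left unnamed. The adaptor Tyrobp had a UMI in 78.2% and 95.5% of the thinned NK-like cells with one of Klrk1, against 74.8% and 88.2% of those without. In CD8 T cells these shares were 1.95% and 1.04% with, against 0.919% and 2.28% without. Hcst was found in 50.5% and 67.7% of CD8 T cells with a Klrk1 UMI, against 45.4% and 58.5% of those without. The intervals of cells with and without Klrk1 overlapped for each of these pairs in these groups. In the mixed NK/ILC1 gate they stood apart for Tyrobp. It was at 52.2% (45.5 to 58.8) against 20.5% (16.9 to 24.5) in CD163_FL. In CD163_NC it was at 57.1% (43.2 to 70.3) against 32.5% (24.2 to 41.7). Hcst was there at 37.8% against 20.5% in CD163_FL, with intervals apart. In CD163_NC Hcst was at 44.6% against 27.5%, with intervals that overlapped.

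Klra7 (chr6:130218605-130233322, minus strand) was highest in the NK-like cluster and lay in few cells of the CD8 T gate. In the NK-like cluster its level was 458 CPM (423 to 494) in CD163_FL and 290 CPM (227 to 366) in CD163_NC, and 40.0% and 23.1% of thinned cells had a UMI. Unconventional T cells had 73.9 and 46.7 CPM from 6.41% and 5.56% of thinned cells. CD8 T cells had 4.68 and 9.66 CPM, with a UMI in 0.662% and 0.865% of thinned cells. The NK-like cluster and a cluster led by Klra6, Klra7 and Xcl1 held 45.7% and 41.2% of all Klra7 UMIs of CD163_FL, and 20.5% and 65.7% of those of CD163_NC. The latter cluster had Klra7 at 164 CPM in CD163_FL and 148 CPM in CD163_NC. Over both libraries its CD3 genes were at 1100 CPM, against 134 CPM in the NK-like cluster, and it was the largest part of the unconventional T gate.

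Klrb1c (chr6:128778485-128789215, minus strand) was highest in the NK-like cluster and low in CD8 T cells. The NK-like cluster had 343 CPM (313 to 375) in CD163_FL and 425 CPM (347 to 515) in CD163_NC, and the CD3-free Il23r-led cells had 81.5 and 161 CPM. Unconventional T cells had 14.7 and 30.6 CPM, and CD8 T cells had 1.99 and 1.83 CPM, from 43 and 7 UMIs, beside 0.249 and 0.738 CPM in B cells. The intervals of CD8 T and B cells overlapped in CD163_NC and not in CD163_FL.

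Klre1 (chr6:129577905-129585827, plus strand) was also highest in the NK-like cluster, at 238 CPM (213 to 265) in CD163_FL and 458 CPM (377 to 551) in CD163_NC. Unconventional T cells had 34.0 and 70.0 CPM and CD8 T cells 8.66 and 16.2 CPM, while ILC2 had 0 UMIs in both libraries, which allows up to 3 counts.

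Klrg1 (chr6:122270596-122282882, minus strand) was the only gene of the 8 with its highest gate level in ILC2, at 148 CPM (126 to 172) in CD163_FL and 220 CPM (182 to 264) in CD163_NC. With cells thinned, 39 of 230 ILC2 of CD163_FL and 28 of 84 of CD163_NC had a UMI (33.3% and 61.2% of all gated ILC2 unthinned), against 0.338% and 0.059% of thinned B cells. The NK-like cluster came next at 62.3 and 36.8 CPM, from 89 and 9 UMIs. CD8 T cells had 28.2 and 10.7 CPM and unconventional T cells 24.3 and 4.02 CPM, from 81 and 5 UMIs. Outside these groups a cluster led by Foxp3, the regulator of regulatory T cells, had 150 CPM (120 to 186) and 110 CPM (85.0 to 139).

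Ncr1 (chr7:4337724-4345164, plus strand) was highest in the NK-like cluster, followed by the CD3-free Il23r-led cells. The NK-like cluster had 148 CPM (128 to 169) in CD163_FL and 446 CPM (366 to 537) in CD163_NC, and the CD3-free Il23r-led cells had 112 and 178 CPM. The intervals of these 2 sets overlapped in CD163_FL and not in CD163_NC. CD8 T cells had 9 UMIs in CD163_FL and 0 in CD163_NC, and ILC2 had 0 in both. The NK-like cluster held 58.4% of all Ncr1 UMIs of CD163_FL and 45.8% of those of CD163_NC. Fcer1g, which carries its signal, had a UMI in 74.1% (63.1 to 83.2) of thinned NK/ILC1 gate cells with an Ncr1 UMI in CD163_FL, against 30.2% of those without, and in CD163_NC in 76.3% (59.8 to 88.6) against 31.9%. In the NK-like cluster these shares were closer, 78.8% (67.0 to 87.9) against 68.5% (61.2 to 75.1) in CD163_FL and 87.0% (66.4 to 97.2) against 81.3% (54.4 to 96.0) in CD163_NC, with intervals that overlapped.

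**Figure D2:**
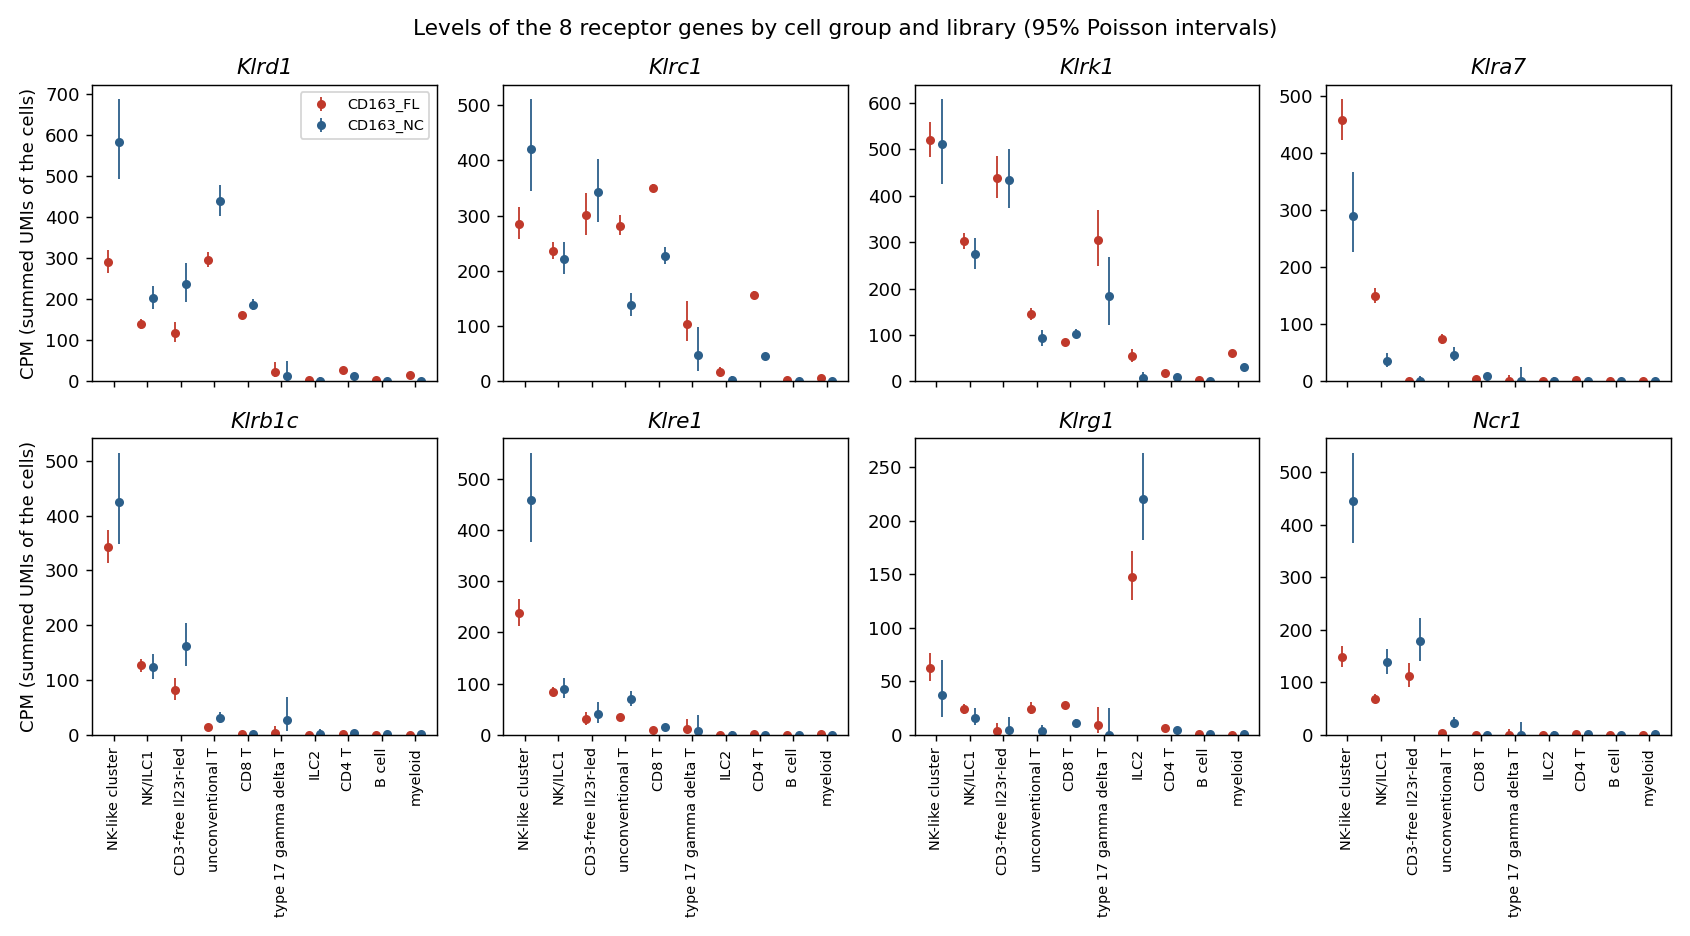
Level of each receptor gene, in CPM of the UMIs summed over the cells of a group, with CD163_FL left of CD163_NC and 95% Poisson intervals. Klrg1 stands highest in ILC2 (148 and 220 CPM), Klrk1 is alike between the libraries in the NK-like cluster (521 and 511 CPM), and Ncr1 is far lower in CD163_FL there (148 and 446 CPM).

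Within the NK-like cluster the members moved in both directions between the libraries. Ncr1 differed most, with a log2 ratio of CD163_FL over CD163_NC of -1.59 (-1.93 to -1.25), from 211 and 109 UMIs. Klrd1 (-1.01, -1.28 to -0.72) and Klre1 (-0.94, -1.26 to -0.62) were also lower in CD163_FL. Klra7 was higher, at 0.66 (0.30 to 1.03). Klrg1 was past the fold of 1.5 at 0.76 from 89 and 9 UMIs, with an interval of -0.23 to 1.93 that includes no difference. Klrk1 (0.03), Klrb1c (-0.31) and Klrc1 (-0.56) stayed within 1.5-fold. Thus 2 of 8 members were at least 1.5-fold higher and 3 of 8 at least 1.5-fold lower in CD163_FL. Of the 6845 genes with at least 20 UMIs in the cluster, 21.2% were that much higher and 22.5% that much lower, so the counts of members are not far from those of all genes. The share of thinned cells with an Ncr1 UMI was 26.4% in CD163_FL and 59.0% in CD163_NC, and that with a Klra7 UMI was 40.0% and 23.1%. The CD163_NC side rests on 39 cells, and S100a8 had a UMI in 1.16% and 35.9% of the cells.

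The wider NK/ILC1 gate gave part of the same picture. Klra7 was at 150 CPM in CD163_FL and 36.2 CPM in CD163_NC, a log2 ratio of 2.05 (1.57 to 2.57), and Ncr1 at 67.9 and 138 CPM, a log2 ratio of -1.02 (-1.33 to -0.71). Klrg1 was just past the fold, at 0.60 (-0.18 to 1.47), and the other 5 were within it, Klrd1 at -0.54 and Klre1 at -0.09. These values depended on how the gate was set. With no limits on genes of other lineages Ncr1 was at 0.19 and the 5 members within the fold were past it, with Klrd1 at 0.59, Klre1 at 1.06, Klrb1c at 1.13, Klrk1 at 1.38 and Klrc1 at 1.41, and Klrg1 was at 1.63. Klrd1 was at -1.07 with cells thinned and at -0.71 with 3 NK/ILC1 genes required. Klrg1 was at -0.44 in the Eomes-positive cells of the gate and at 0.50 in cells of at least 2000 UMIs. Klra7 was at 1.40 with 1 CD3 UMI allowed and at 0.65 in the Eomes-positive cells. So 2 members were higher (background 18.4% of 10020 genes) and 1 lower (background 22.2%). The gate's makeup differed: the NK-like cluster made up 24.8% of it in CD163_FL and 11.3% in CD163_NC, and the largest part in CD163_NC, 23.5%, was the Il23r-led cluster. Among CD163_NC cells of the gate 11.8% lay in a cluster led by Mpo, Elane and S100a9. The part that this makeup has in the gate's ratios was not tested. In the CD3-free Il23r-led cells Ncr1 (-0.67, -1.13 to -0.21), Klrd1 (-0.99) and Klrb1c (-0.99) were lower in CD163_FL too, and Klrk1 was at 0.02.

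In unconventional T cells 7 of the 8 members were past the fold. Higher in CD163_FL were Klrg1 (2.60, 1.31 to 4.26), Klrc1 (1.03, 0.79 to 1.27), Klra7 (0.66) and Klrk1 (0.64). Lower were Ncr1 (-2.96, from 10 and 29 UMIs), Klrb1c (-1.05) and Klre1 (-1.04), and Klrd1 was within at -0.56. With cells thinned to 2000 UMIs Klra7 was at 0.17 and no longer past the fold, Klrd1 was past it at -0.63, and Ncr1 was at -1.92. With 1 CD3 UMI required in place of 2, Klra7 was at 0.32. The 29 Ncr1 UMIs of CD163_NC came from 4 of 204 cells, and the 10 of CD163_FL from 5 of 505. The counts were 4 higher, against 18% of all 9456 measured genes, and 3 lower, against 19.3%. Clusters filled this gate unevenly, so, after the data were seen, ratios were also taken within the largest shared one, led by Klra6, Klra7 and Xcl1 (138 and 86 gated cells). There Klrk1 was at 1.45 (0.93 to 2.00), Klra7 at 0.70 (0.25 to 1.18) and Klre1 at -1.45 (-2.16 to -0.75), whereas Klrc1 was at 0.07 (-0.37 to 0.52) and Klrd1 at -0.14 (-0.34 to 0.07). In the next shared cluster, led by Cd8b1, Tbx21 and Cd8a, with 26 and 54 gated cells, the directions were other: Klrk1 was at -1.36 (-2.66 to -0.24), Klrc1 at -0.82 (-1.58 to -0.12) and Klrd1 at -1.37 (-2.22 to -0.61). The Klrk1 and Klrc1 ratios of the whole gate thus did not hold in every cluster.

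In CD8 T cells, Klrg1 was higher in CD163_FL (1.40, 0.94 to 1.89) and so was Klrc1 (0.63, 0.53 to 0.73), while Klra7 (-1.05) and Klre1 (-0.90) were lower. With cells thinned to 2000 UMIs neither Klra7 (-0.28) nor Klrc1 (0.50) was past the fold, and Klrc1 was at 0.55 with median-ratio scaling. The Klra7 ratio came from 101 and 37 UMIs in 22 of 2273 and 6 of 586 cells. Klrd1 (-0.21), Klrk1 (-0.30) and Klrb1c (0.12, or -1.16 with cells thinned) were within 1.5-fold, and Ncr1 had too few UMIs. Of the 7 measured members 2 were higher, with a background of 17.7%, and 2 lower, with a background of 18.6%. Clusters were made with no step to align the libraries, so library and cell state cannot be told apart in them. The libraries filled different clusters: 53.9% of CD163_FL cells lay in one led by Cd8b1, Cd8a and Gzmk, and 65.4% of CD163_NC cells in one led by Cd8b1, Tbx21 and Cd8a. Within the second, with 113 and 383 gated cells, Klrg1 was higher in CD163_FL (1.38, 0.58 to 2.16), but Klrc1 was at -0.20 (-0.44 to 0.02), Klrk1 at -0.54, Klrd1 at -0.43 and Klre1 at 0.31 (-0.49 to 1.07). Klrc1 was at -0.13 (-0.44 to 0.21) within the first, which had 25 CD163_NC cells and where Klrd1 was at 0.67 (0.07 to 1.35) and Klrg1 at 2.37 (-0.12 to 7.68), and at 0.84 (0.41 to 1.30) within a cycling cluster led by Pclaf and Birc5, which had 20 and where Klrg1 was at 0.33 (-0.67 to 1.56). The Klrc1 difference of the whole gate was thus not seen inside the 2 clusters that hold most cells of each library. Cells with a Mki67 UMI were 27.4% of the CD8 T gate in CD163_FL and 10.2% in CD163_NC.

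**Figure D3:**
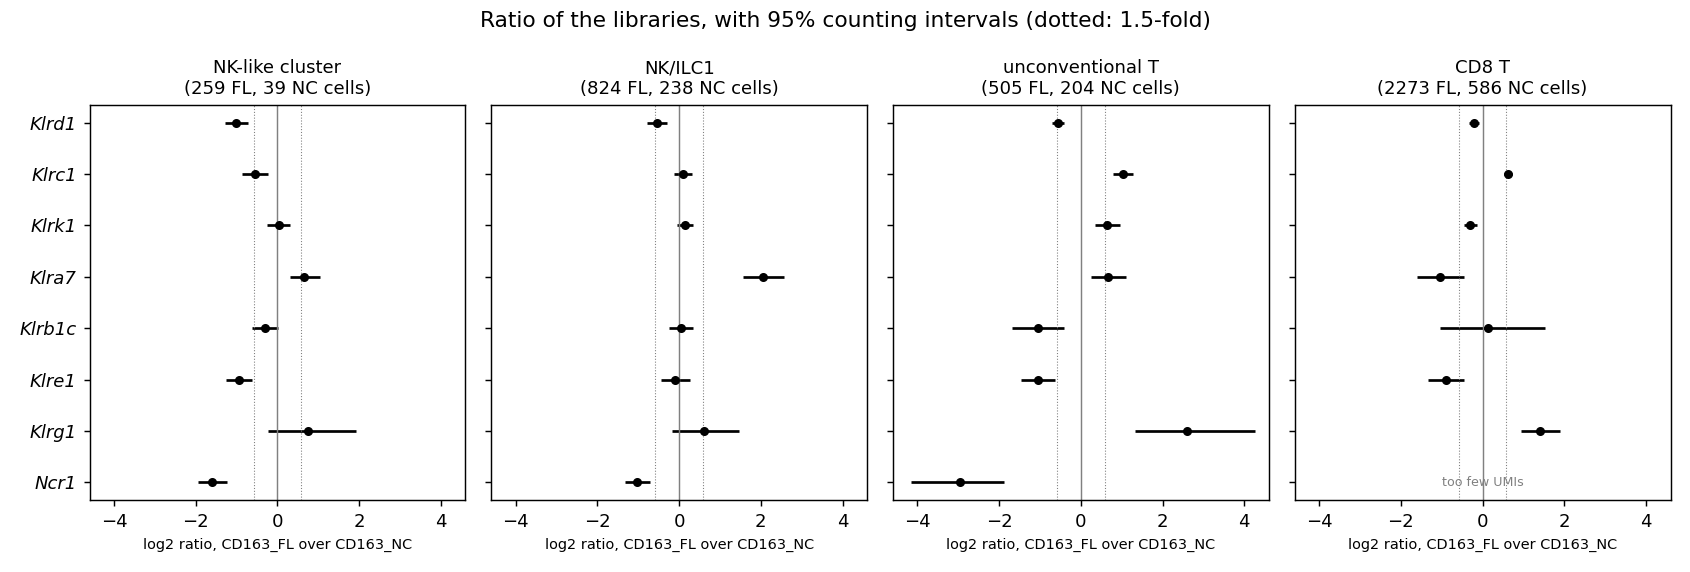
Log2 ratio of CD163_FL over CD163_NC for each member in 4 cell groups, with 95% counting intervals and dotted lines at 1.5-fold. Ncr1 lies left of 0 in the first 3 groups (-1.59, -1.02 and -2.96) and Klrg1 lies right of 0 in all 4, though its interval includes 0 in the first 2.

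In ILC2, only Klrg1 and Klrk1 had at least 20 UMIs. Klrk1 had 61 UMIs (54.9 CPM, 42.0 to 70.5) in CD163_FL and 4 UMIs (7.58 CPM, 2.07 to 19.4) in CD163_NC, a log2 ratio of 2.86 (1.43 to 4.78), or 1.72 with cells thinned. The whole ILC2 cluster, led by Il17rb, Stab2 and Dach2, had 109 and 14.6 CPM of Klrk1. Klrg1 was at -0.58 (-0.93 to -0.22), just within the fold, or past it at -0.78 with cells thinned and -0.64 with median-ratio scaling. Of all 6786 measured genes 22.5% were at least 1.5-fold higher and 18.5% lower, against 1 and 0 of these 2 members. Type 17 gamma delta T cells also had 2 measured members, Klrk1 (0.72, 0.10 to 1.39) and Klrc1 (1.13, -0.06 to 2.54), both past the fold, where 27.1% of genes were higher and 16.4% lower. With no limits on genes of other lineages neither was past the fold, at 0.45 and 0.46.

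CD4 T cells, which were gated for comparison, held these genes at low levels except Klrc1. Klrc1 was at 157 CPM (151 to 163) in CD163_FL and 45.8 CPM (41.6 to 50.4) in CD163_NC, a log2 ratio of 1.77 (1.63 to 1.92), and 18.9% and 6.77% of thinned cells had a UMI (33.9% and 12.7% unthinned). Its partner Klrd1 had 28.7 and 14.1 CPM. In all 6 of 8 members were at least 1.5-fold higher in CD163_FL, against 10.9% of 12542 genes, and 1, Klrb1c, was lower, against 19%. Klrb1c was no longer past the fold with doublets kept (-0.58) or with cells thinned (-0.40). For Klra7 and Klre1 these ratios rest on 40 and 4, and 45 and 6 UMIs. A cluster led by Tnfrsf4, Cxcr6 and Fam20a held 54.6% of the gated CD163_FL cells, and one led by Il21, Cd40lg and Lag3 held 40.7% of those of CD163_NC. Klrc1 had 203 and 95.7 CPM in the first, 92.3 and 89.4 CPM in the second, 49.5 and 12.5 CPM in one led by Tnfsf8, Ntrk3 and Izumo1r, and 87.1 and 22.7 CPM in one led by Il23r, St8sia1 and Tnfsf11. Its log2 ratio was 1.08 (0.68 to 1.51) in the first and 0.05 (-0.30 to 0.38) in the second. In the other two it was 1.99 (1.35 to 2.66) and 1.94 (1.20 to 2.75).

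**Figure D4:**
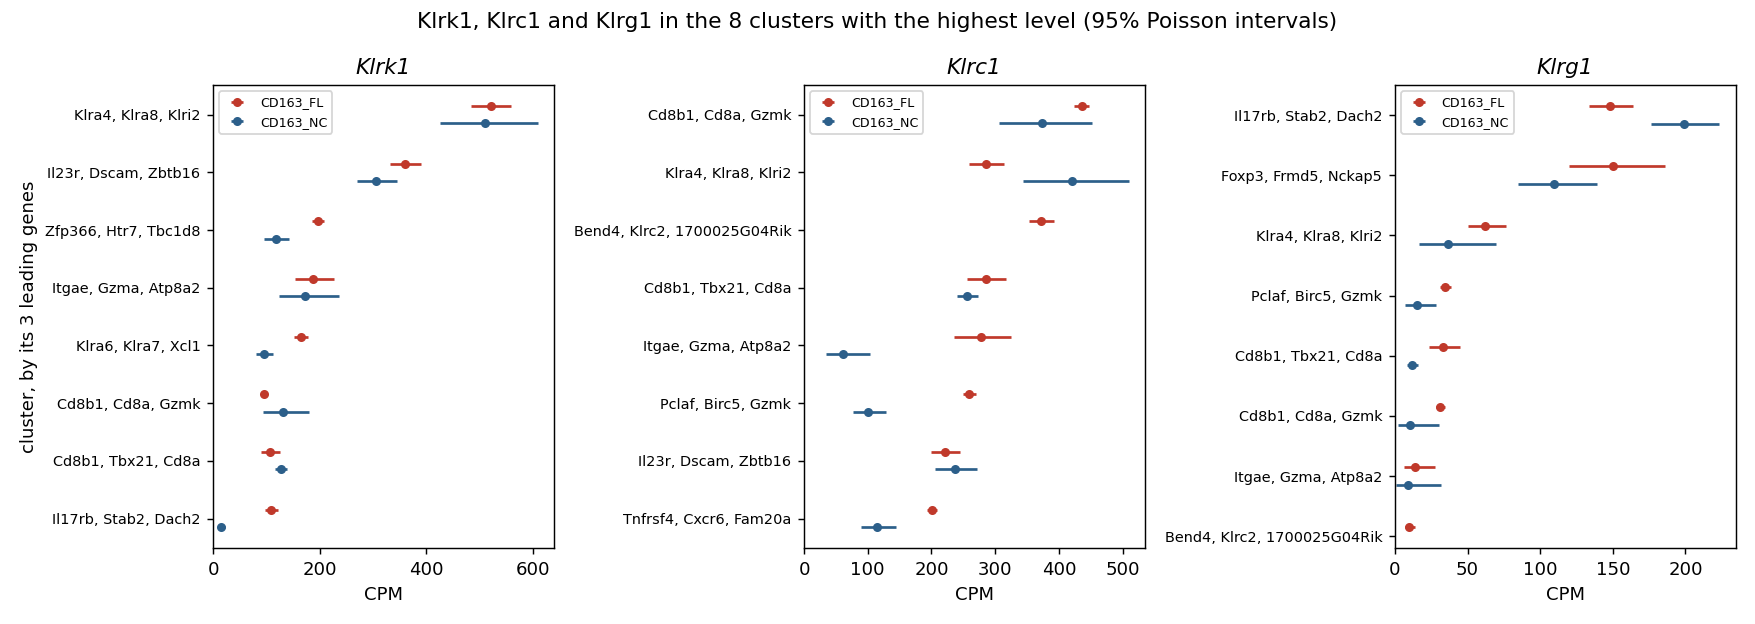
Levels of Klrk1, Klrc1 and Klrg1 in the 8 clusters where each was highest, named by 3 leading genes, with CD163_FL above CD163_NC and 95% Poisson intervals; libraries with fewer than 20 cells in a cluster are not drawn. Klrk1 reaches 197 and 118 CPM in the Zfp366-led cluster, and Klrg1 reaches 150 and 110 CPM in the Foxp3-led one.

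Other genes of the pathway were counted in the same way from lists of related receptors, adaptors, effectors, regulators and ligands. Beside these counts, 21.2% of all measured genes were past the fold higher and 22.5% lower in the NK-like cluster. These shares were 17.7% and 18.6% in CD8 T cells, and 18% and 19.3% in unconventional T cells. In the NK-like cluster the median log2 ratio was -0.14 over 19 measured related receptors (5 higher, 6 lower) and -0.21 over 14 adaptors (1 and 2), beside -0.01 over all measured genes. Among the receptors with the most UMIs, Klra4 (0.23) and Klra8 (-0.01) of the Ly49 family and Klrb1b (-0.14) were within the fold, and Klri2, the partner of Klre1, was higher (0.84). The adaptors Tyrobp (-0.36), Fcer1g (-0.56), Hcst (-0.23) and Cd247 (-0.05) were within it. Effectors had a median of -0.37 over 12 genes (1 higher, 5 lower). Of these, the chemokine Ccl4 was lower (-0.78), and the chemokine Ccl5 (0.33) and the granzymes Gzma (0.39) and Gzmb (-0.07) were within the fold. Regulators had a median of 0.64 over 13 genes (7 higher, 3 lower). The transcription regulators Id2 (0.76) and Runx3 (0.78) and the interleukin 18 receptor chain Il18rap (1.20) were higher, and the cytokine receptor chain Il2rb (0.34) was within. Ligands had a median of -0.02 over 9 genes (1 higher, 2 lower), with B2m (-0.18), H2-K1 (0.20), H2-D1 (-0.02) and Clec2d (0.27) within. H2-T23, which encodes the Qa-1 ligand of the Klrd1 and Klrc1 pair and was picked after its values were seen, was lower at -0.64. In CD8 T cells the medians were -0.05 over 19 receptors (4 higher, 6 lower), -0.39 over 13 adaptors (1 and 5), -0.17 over 13 effectors (3 and 6), 0.43 over 14 regulators (6 and 2) and -0.15 over 9 ligands (1 and 1), beside 0.08 over all genes. In unconventional T cells they were -0.09 over 20 receptors (6 and 5), -0.37 over 14 adaptors (1 and 4), -0.48 over 13 effectors (3 and 5), 0.50 over 13 regulators (6 and 3) and -0.08 over 9 ligands (0 and 3), beside 0.02 over all genes. Several effector and regulator genes also served to gate the NK/ILC1 cells and to pick the NK-like cluster.

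Genes whose log2 levels ran most like those of a member were sought across the 20 sums of gate and library. Klrc1 followed Klrc2 (Pearson r 0.990), with which it shares sequence, and Klra7 followed Klra1 (0.976) and Klra3 (0.968), 2 other Ly49 genes. Ncr1 was closest to Fam184a (0.962), Klrd1 to Bend4 (0.947), Klre1 to Apol7b (0.959), Klrb1c to Apol7b (0.912), Klrk1 to Adgrg5 (0.940) and Klrg1 to Tanc2 (0.904). The sums of a library share its preparation, and these values describe them only.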

How the data were processed

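The deposited values are raw counts of UMIs per gene and cell, from matrices that Cell Ranger 7.1.0 wrote, per the file headers. The submitters' processing notes name mm10 and Seurat 4. The aligner settings and the gene annotation were not given in the sources used here. Cells needed at least 500 UMIs, 200 genes and at most 10% mitochondrial UMIs. Scrublet called 641 doublets in CD163_FL (4.20%) and 271 in CD163_NC (2.61%), under the 12.2% and 8.31% expected from barcode numbers, and these were removed, so some doublets may remain.

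Gates used raw UMIs of marker genes, none of them a member. Clusters (scanpy 1.11.5, Python 3.11.15; 2000 variable genes, 30 components, 15 neighbours, Leiden resolution 2; 37 clusters) were made without lectin-like receptor genes and Ncr1. Both libraries were clustered together with no step to align them, so clusters may split by library as well as by cell state. The leading genes and summed marker levels of clusters came from values scaled per cell and log-transformed. All other levels are CPM of summed UMIs with exact Poisson intervals. Shares have Clopper-Pearson intervals, and ratios have exact conditional binomial intervals, all at 95%. A member was counted as past the fold at 1.5-fold or more with at least 20 UMIs over both libraries. A count of 0 allows up to 3 counts. Gates needed 20 cells in each library. For each member the 3 genes most alike by Pearson correlation were found among 13247 genes with at least 50 UMIs, and the closest are named. From each of the 5 pathway lists, the 4 genes with the most UMIs in the NK-like cluster were named. Positions are from GENCODE M21. The ratio intervals and calls were run on simulated independent Poisson counts at the levels of the CD8 T gate. That setting leaves out counts that bunch in few cells, so it cannot show whether the intervals are wide enough for such genes. The members and lists were chosen with earlier results of these data known.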

Additional observations from a re-analysis of the deposited data

Results flagged for a closer look

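Among the NK/ILC1, unconventional T, CD8 T and ILC2 gates, a member moved in opposite directions in 2 gates, with both intervals clear of 0, in 6 cases. Each value is the log2 ratio of CD163_FL over CD163_NC in the first gate minus that in the second, and with 1 library per group none of these differences was tested. For Klra7, the difference was 3.10 between NK/ILC1 (2.05) and CD8 T cells (-1.05), and 1.71 between unconventional T (0.66) and CD8 T cells, where few cells hold the gene and the ratio was -0.28 with cells thinned. For Klrk1, it was 0.94 between unconventional T (0.64) and CD8 T cells (-0.30), and -3.15 between CD8 T cells and ILC2 (2.86), with 4 Klrk1 UMIs in CD163_NC ILC2. Within the cluster led by Cd8b1, Tbx21 and Cd8a, Klrk1 was below 0 in both T cell gates, at -1.36 in unconventional T and -0.54 in CD8 T cells. In unconventional T cells of the Klra6-led cluster it was at 1.45. For Klrg1, the difference was 3.17 between unconventional T (2.60) and ILC2 (-0.58), and 1.97 between CD8 T cells (1.40) and ILC2. The CD4 T and type 17 gamma delta T gates were not part of this comparison, and some of their ratios also ran against those of other gates, such as Klrd1 at 1.03 and Klre1 at 1.97 in CD4 T cells.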

How the results depend on the processing

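No paired analysis was possible because there is 1 library per group. Of the values recomputed under the alternatives, 376 stayed within their interval (for shares of genes, within 1.5 times), 66 moved by more, and 4 that were past 1.5-fold changed sign. These 4 were Ncr1 in the NK/ILC1 gate with no lineage limits (0.19), Klrc1 (-0.20) and Klre1 (0.31) in CD8 T cells within 1 cluster, and Klrg1 in the Eomes-positive NK/ILC1 cells (-0.44). The cause was not tested. Values nearer 0 also changed sign, among them Klrd1 in NK/ILC1 with no lineage limits (0.59) and the summed members of CD8 T cells within 1 cluster (-0.24). The log2 ratio of the summed 8 members was 0.04 in NK/ILC1, 0.05 in unconventional T, 0.20 in CD8 T and 1.45 in CD4 T cells. With no lineage limits it became 1.21, 0.16, 0.42 and 1.58. In NK/ILC1 it was -0.18 when 3 genes were required, -0.083 thinned, -0.44 in the NK-like cluster and -0.27 in Eomes-positive cells. In CD8 T cells it was 0.13 with median-ratio scaling, -0.24 within 1 cluster and 0.40 without cells with a Mki67 or Top2a UMI. In CD4 T cells it was 1.28 thinned and 1.76 without those cells. The minimum of 20 UMIs over both libraries was also replaced by at least 1 UMI in each library, so genes unseen in either library stayed out. The share of genes at least 1.5-fold lower was then 33.7% in NK/ILC1, 35.7% in the NK-like cluster, 29.1% in unconventional T, 28.9% in CD8 T, 28.3% in ILC2 and 31.3% in type 17 gamma delta T cells. The cluster, 1-cluster, Eomes and Mki67 alternatives were chosen after seeing the data. Over all alternatives Klra7 in NK/ILC1 ranged from 0.65 to 2.62 and Klrg1 in CD8 T cells from 1.08 to 1.64. The Klrg1 range takes in 1 cluster only. In CD8 T cells of the cycling Pclaf-led cluster Klrg1 was at 0.33 (-0.67 to 1.56). In those of the cluster led by Cd8b1, Cd8a and Gzmk it was at 2.37 (-0.12 to 7.68). Cell numbers limit the ratios in small sets, such as the 39 NK-like, 22 type 17 gamma delta T and 23 Eomes-positive cells of CD163_NC.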
